A study of Mus musculus with 24 samples.

Results

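The transcriptional response of *Baf180* KD myoblasts to zinc was followed in 4 RNA-seq libraries of the 24 in the series, 2 from cells given Zn and 2 from untreated cells (NT), chosen by the sample titles. Another 2 libraries, from the same KD cells given Cu, shared the fit and its estimate of the spread. *Baf180* KD cells were a stable C2C12 mouse myoblast population transduced with an shRNA against *Pbrm1*, the gene for the PBAF subunit Baf180, and kept under puromycin. They grew in proliferation medium alone, with 50 µM ZnSO4 or with 100 µM CuSO4 for 48 h, and scr control cells carrying a non-target shRNA were treated in the same way. Each condition had 2 independent biological replicates. The model is limited by a partial knockdown in a mixed population of transduced cells, and whether the replicates came from 1 transduced population is not given in the sources used here. Sample labels name primary myoblasts where the methods name C2C12 cells, and the labels' treatment tag reads Cu for all 6 *Baf180* KD samples, against their titles. The question was which genes follow added Zn in myoblasts with little Baf180.

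Cells hold free Zn low through a short circuit. MTF1, a zinc finger transcription factor, is activated when Zn binds it and turns on genes with metal response elements (MREs) in their promoters, among them the metallothioneins, which bind Zn and Cu in clusters of cysteines, and *Slc30a1*, which encodes the plasma membrane exporter ZnT1. *Slc39a10* encodes the importer ZIP10, whose transcription MTF1 represses. In general, Slc30 proteins carry Zn out of the cytosol and Slc39 proteins carry it in. PBAF is the form of the SWI/SNF chromatin remodeler that contains Baf180, Arid2, Brd7 and Phf10.

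The 2 shRNAs listed against *Baf180* are shown because they define the cell line, and which of them was used for these libraries is not given in the sources used here. Their 21-base targets are in capitals.
Baf180 shRNA1: TGTGAAGTTGGTCCTAGTTTA
Baf180 shRNA2: GTGCAATATCCAGACTATTAT
The target of shRNA1 lies in the 3′ UTR of *Pbrm1* (GRCm38, chr14:31119323-31119343, plus strand, exon 31 of the longest transcript that holds it) and in 4 of 17 annotated *Pbrm1* transcripts. That of shRNA2 lies in the coding sequence across the junction of exons 7 and 8 (chr14:31036057-31036059 and chr14:31038933-31038950) and in 13 of the 17. Neither target occurs in an annotated transcript of another gene.

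For the genes that carried the Zn response, the 250 bases before the RefSeq start (GRCm38.p6) are shown with every match to the MRE core in capitals. The core was searched as TGCACNC and TGCGCNC on both strands, so that it also appears as its reverse complement.
Mt2, chr8:94172368-94172617, plus strand: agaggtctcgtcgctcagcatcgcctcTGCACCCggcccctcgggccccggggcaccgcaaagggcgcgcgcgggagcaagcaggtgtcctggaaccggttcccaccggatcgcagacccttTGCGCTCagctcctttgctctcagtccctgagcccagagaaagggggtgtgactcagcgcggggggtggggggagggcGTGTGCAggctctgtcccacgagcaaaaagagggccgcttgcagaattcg
Mt1, chr8:94178839-94179088, plus strand: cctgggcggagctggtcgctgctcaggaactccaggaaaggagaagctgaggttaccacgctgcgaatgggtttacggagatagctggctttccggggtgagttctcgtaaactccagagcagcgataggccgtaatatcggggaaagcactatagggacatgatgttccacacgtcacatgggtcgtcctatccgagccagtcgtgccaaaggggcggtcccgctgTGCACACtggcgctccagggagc
Slc30a1, chr1:191906531-191906780, plus strand: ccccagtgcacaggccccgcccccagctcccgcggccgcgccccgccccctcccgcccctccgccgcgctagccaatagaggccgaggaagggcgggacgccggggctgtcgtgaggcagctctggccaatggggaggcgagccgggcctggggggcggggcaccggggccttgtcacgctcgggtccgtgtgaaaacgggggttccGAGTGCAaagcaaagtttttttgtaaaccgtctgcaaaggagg
*Mt2* had 3 cores in this window and *Mt1* and *Slc30a1* had 1 each, and neither of the 2 RefSeq promoters of *Slc39a10* had any. Of 32851 promoters searched, 21.41% had at least 1 core and 1.26% at least 3. With the 50 bases after the start counted as well, *Mt1* had 3 cores and *Slc30a1* had 2, against 1.97% of promoters with at least 3 and 7.11% with at least 2. Each count depends on the RefSeq start used, and bases more than 50 past it were not searched. The letters show a match and not a bound site, and no match says only that these letters are absent from the window.

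Expression is given in CPM, counts scaled by TMM to a common library size. The targeted transcript was at 65.8 and 75.7 CPM in the untreated KD libraries, at 51.0 and 63.1 with Zn and at 42.2 and 56.0 with Cu. In scr cells *Pbrm1* was at 142.8 and 99.9 CPM untreated and at 222.4 and 227.5 with Zn. Every *Baf180* KD library was thus below every scr library shown, and *Pbrm1* transcript was still present in all of them. Among the KD libraries, Zn and NT did not overlap for *Pbrm1*, with a log2 fold change of -0.32 (SE 0.15) that did not pass the test (adjusted p = 0.399). With library trends on GC content and transcript length removed, a correction used again below, it was -0.06 (SE 0.10).

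The *Baf180* KD libraries held 13979295 to 33297041 counts. Myoblast markers (*Myod1*, *Myf5*, *Des*, *Pax7*, *Cdh15*, *Vim*) were all detected and summed to between 6261 and 8563 CPM, with *Pax7* at 2.76 to 3.53 CPM. Markers of adipocytes, osteoblasts, endothelium, blood and neurons each summed to at most 24.7 CPM. Much of this came from *Pparg* at 19.1 to 24.5 CPM, *Tubb3* at 10.75 to 14.45 and *Cd68* at 4.19 to 5.38, all above *Pax7*. *Adgre1* and *Cd3e* were at 0 in all 6 libraries, and *Pecam1*, *Cdh5* and *Snap25* were at no more than 0.244 CPM. Library totals differed between replicates, and Zn replicate 1 was the shallowest of the 6.

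With Zn, 3 of the 15241 genes tested passed an adjusted p under 0.05 in edgeR's quasi-likelihood test, which is 0.0197% of all genes. All 3 are zinc handling genes. The metallothionein *Mt2* (GRCm38 chromosome 8, 94172664 to 94173568) was at 110.1 and 96.3 CPM in NT and at 376.0 and 307.8 CPM with Zn. Its lower Zn library stood above both NT libraries by a wide margin, and it rose by 1.71 on the log2 scale (SE 0.10, adjusted p = 1.46e-04), from 103 ± 9.78 to 342 ± 48.3 CPM (SD, n = 2). The exporter gene *Slc30a1* (chromosome 1, 191906767 to 191913247) was at 16.6 and 15.9 CPM in NT and at 36.1 and 31.1 CPM with Zn. It rose by 1.02 (SE 0.12, adjusted p = 0.0231), with no overlap between the groups. The importer gene *Slc39a10* (chromosome 1, 46807544 to 46892852) moved the other way, from 38.8 and 37.1 CPM to 17.6 and 14.4 CPM, a log2 fold change of -1.28 (SE 0.12, adjusted p = 0.00474). *Mt2* and *Slc39a10* passed in each of the 6 fits that left out 1 library. *Slc30a1* kept its size in these fits but lost the call without NT replicate 1 (adjusted p = 0.220), NT replicate 2 (0.246) and Zn replicate 1 (0.109), where 1 library stood for its group.

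*Mt1* (chromosome 8, 94179082 to 94180327), the other metallothionein expressed in these cells, was at 282.1 and 217.9 CPM in NT and at 725.5 and 506.9 CPM with Zn. Both Zn libraries were above both NT libraries, but they stood apart from each other by more than the NT libraries did. Its log2 fold change was 1.28 (SE 0.17) and missed the threshold (adjusted p = 0.0646). It passed in 7 of 11 alternative settings, with adjusted p between 3.13e-42 and 0.0865 and of 0.0512 after the correction. Those 7 include the fits with the replicate number as a block, and the lowest value came from a filter of at least 1 count. The settings share their libraries, and that with a minimum fold change of 1.5 reuses the main fit. With 1 library left out the log2 fold change of *Mt1* ran from 1.02 to 1.51. *Mt3* and *Mt4* were too low to be tested. *Mtf1* itself was at 41.7 and 41.0 CPM in NT and at 47.5 and 40.7 CPM with Zn, groups that overlap, with a log2 fold change of 0.07 (SE 0.10, adjusted p = 0.796).

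**Figure D1:**
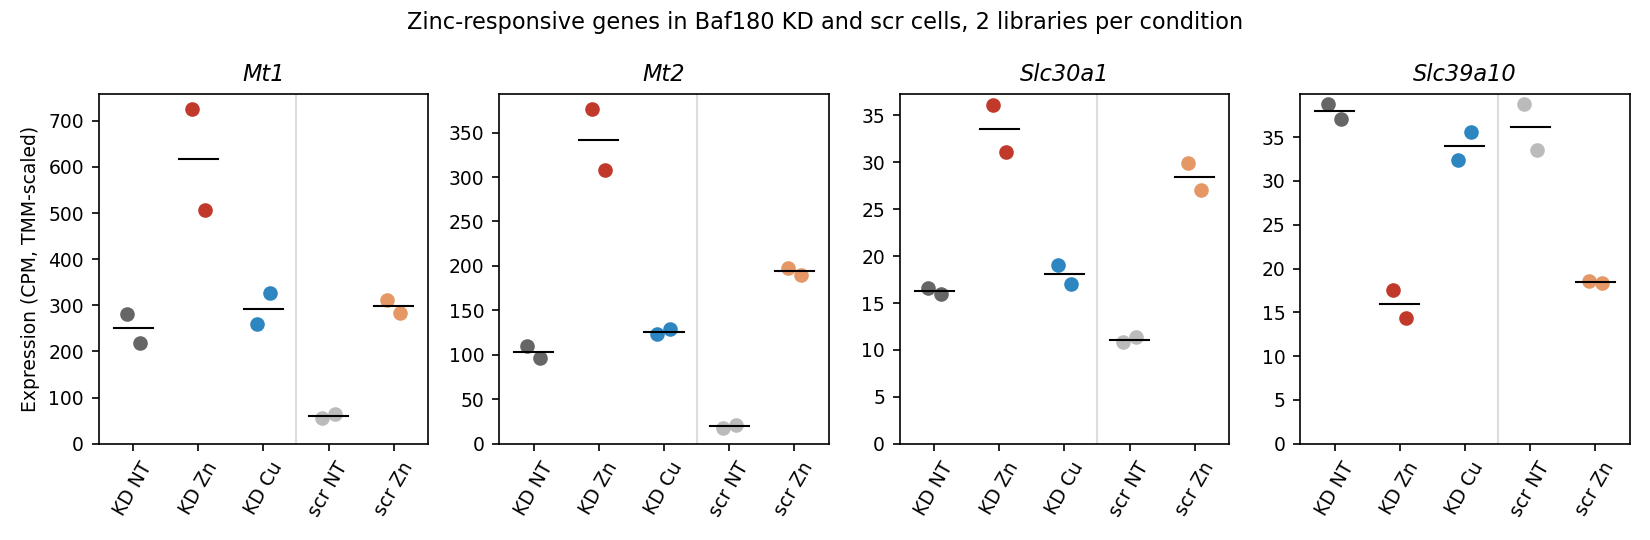
Expression (CPM, linear axis from 0) of *Mt1*, *Mt2*, *Slc30a1* and *Slc39a10* in *Baf180* KD cells (KD) without metal (NT), with Zn or with Cu, and in scr cells without metal or with Zn. Each point is 1 library and each line the mean of 2. The Zn libraries of the KD cells stand above NT for the first 3 genes and below it for *Slc39a10*, where they are at 17.6 and 14.4 CPM.

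None of the other zinc transporter genes tested passed the threshold. Of 10 Slc30 genes 6 were tested, and apart from *Slc30a1* their log2 fold changes ran from -0.28 (SE 0.12, adjusted p = 0.369) for *Slc30a4*, a transporter into vesicles, to 0.03. *Slc30a4*, *Slc30a7* and *Slc30a9* had both Zn libraries below both NT libraries, and corrected values of -0.03, 0.06 and -0.03, while *Slc30a5* went from 0.03 to 0.22. Of 14 Slc39 genes 10 were tested, and apart from *Slc39a10* they ran from -0.30 (SE 0.19) for *Slc39a8* to 0.31 (SE 0.17) for *Slc39a7*, which carries Zn out of the endoplasmic reticulum. *Slc39a1*, *Slc39a3*, *Slc39a6*, *Slc39a9*, *Slc39a11*, *Slc39a13* and *Slc39a14* lay between these 2 values. Corrected, *Slc39a8* was at -0.04 and *Slc39a7* at 0.20. The median was -0.07 over the Slc30 genes (0.08 corrected) and 0.01 over the Slc39 genes (-0.04 corrected), beside -0.01 over all genes tested. The list of MTF1 targets held 11 genes, *Mtf1* itself among them. Of these, *Mt2*, *Slc30a1* and *Slc39a10* passed, and 9 (*Mtf1* included) were higher with Zn, with a median of 0.09. Of all 15241 genes, 7435 were higher. *Gclc*, *Selenoh*, *Ndrg1*, *Csrp1*, *Slc40a1* and *Pgf* were each within 0.2 of no change on the log2 scale.

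Of the copper handling genes 17 of 19 were tested and none passed (0 by DESeq2 as well). At an unadjusted p under 0.05, which 5.77% of all genes met upward and 7.34% downward, *Sod1* was higher and *Cox17* and *Cp* were lower. *Sod1*, the cytosolic Cu/Zn superoxide dismutase, had a log2 fold change of 0.34 (SE 0.09). The ferroxidase gene *Cp* was at 39.1 and 41.1 CPM in NT and 30.3 and 29.8 CPM with Zn, a log2 fold change of -0.44 (SE 0.10, adjusted p = 0.276) that became -0.22 after the correction, and *Cox17*, a copper chaperone for cytochrome oxidase, had -0.38 (SE 0.15). *Atp7a*, the copper exporter, was at 42.7 and 48.1 CPM in NT and at 36.9 and 42.5 CPM with Zn. These groups did not overlap by a narrow margin, and the log2 fold change of -0.21 (SE 0.12) did not pass (adjusted p = 0.468) and became -0.08 after the correction. The importer gene *Slc31a1* was at 69.4 and 59.6 CPM in NT and at 69.0 and 61.5 CPM with Zn, which overlap. The 4 PBAF subunit genes had values from -0.32 for *Pbrm1* to -0.03 for *Brd7*, with *Arid2* at -0.14 (SE 0.08) and *Phf10* at -0.07, none of them called by edgeR or DESeq2 and none at an unadjusted p under 0.05. Their median went from -0.11 to -0.01 with the correction, and *Phf10* went to 0.12.

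**Figure D2:**
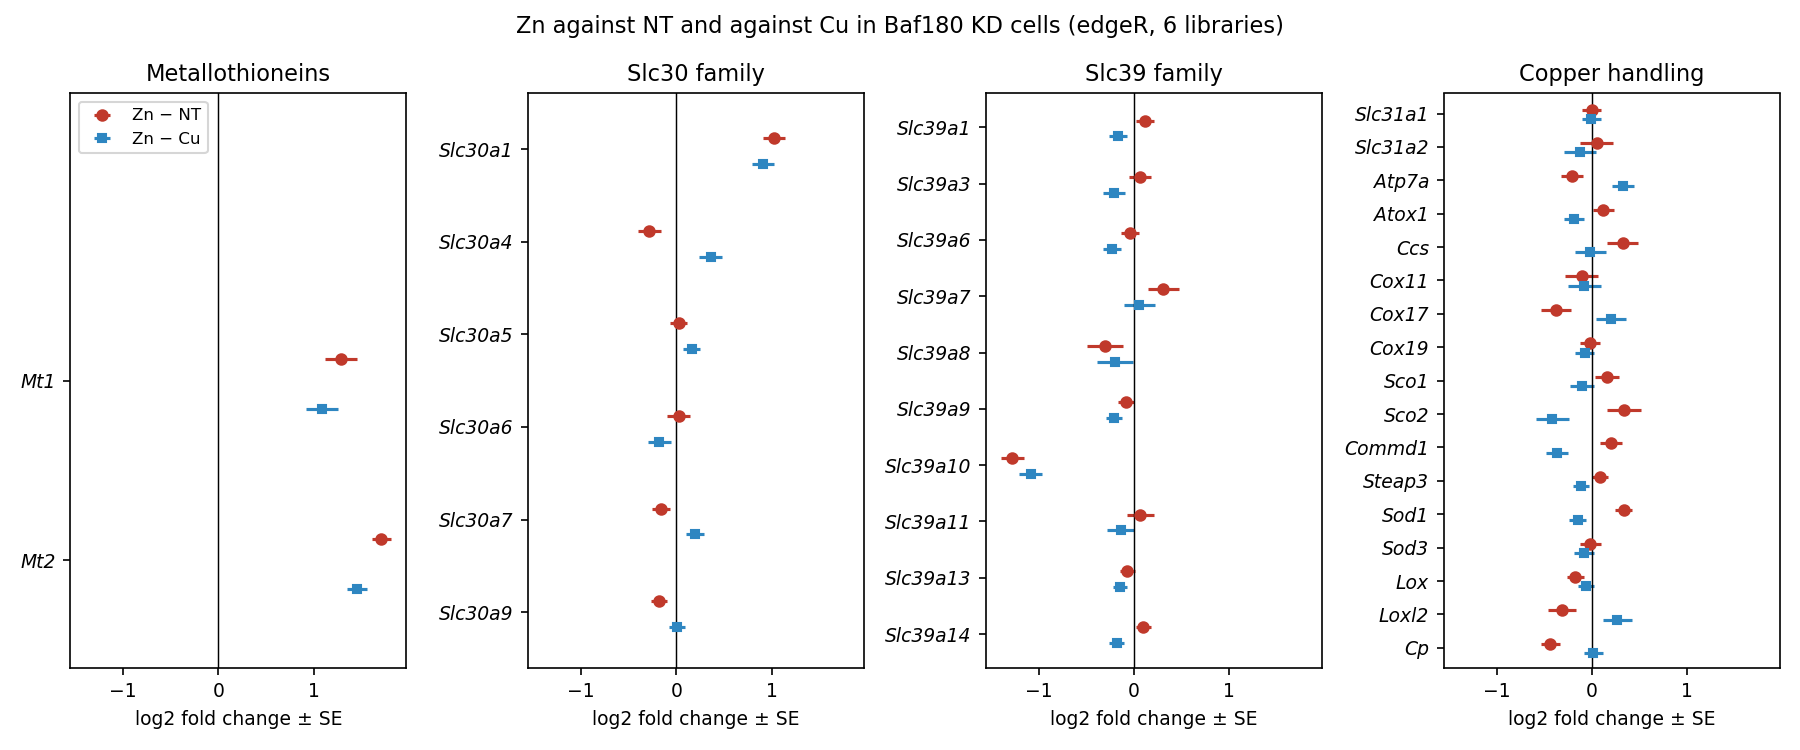
Log2 fold change with its SE of the metallothioneins, the Slc30 and Slc39 families and the copper handling genes that were tested, Zn against NT (red circles) and Zn against Cu (blue squares) in *Baf180* KD cells. *Mt1*, *Mt2* and *Slc30a1* stand to the right of 0 and *Slc39a10* to the left in both comparisons, while the other genes lie within 0.5 of 0.

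Beyond the zinc genes, the smallest p-values on the higher side belonged to 6 histone genes and *Ier2*, and those on the lower side to a mixed set, and none of these genes passed the threshold. A total of 880 genes had an unadjusted p under 0.05 upward and 1119 downward. These are 5.77% and 7.34% of all genes, the shares to set beside the counts of each list below. DESeq2 called 38 of the 15241 genes higher and 55 lower, the counts to set beside its calls in each list. The linker histone gene *H1f1* was at 193.6 and 190.1 CPM in NT and at 354.7 and 281.6 CPM with Zn, a log2 fold change of 0.71 (SE 0.10, adjusted p = 0.0922). *H1f3* was at 270.2 and 261.6 CPM against 413.3 and 392.3 CPM, a log2 fold change of 0.58 (SE 0.09). Core histone genes *H3c7*, *H3c6* and *H2bc12* and the linker gene *H1f5* followed, with log2 fold changes of 0.51, 0.43, 0.55 and 0.46. *Ier2*, an immediate early gene, completed the 10 with 0.61 (SE 0.12). In each of these genes both Zn libraries were above both NT libraries, which was a condition of their choice.

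On the lower side *Lrrn1*, which encodes a leucine-rich repeat membrane protein, was at 44.8 and 44.7 CPM in NT and at 27.5 and 26.1 CPM with Zn, a log2 fold change of -0.76 (SE 0.11, adjusted p = 0.0816). *Fhl1*, a LIM domain gene of skeletal muscle, was at 295.5 and 265.6 CPM against 184.4 and 201.7 CPM, a log2 fold change of -0.55 (SE 0.09). The matricellular genes *Ccn3* and *Ccn2* had -0.81 and -0.48. *Enpp2*, which encodes autotaxin, had -1.26 (SE 0.21), the value farthest from 0 among these 10 genes after *Slc39a10*, from a low level of 9.23 and 10.6 CPM to 3.34 and 4.88 CPM. *Arhgap29*, *Pappa*, *Jam2* and *Actc1* had -0.51, -0.64, -0.53 and -0.83. Once corrected, *Mt2*, *Slc30a1* and *Slc39a10* were the 3 genes called. *H1f1* then had 0.58 (adjusted p = 0.0696), *Lrrn1*, *Ccn2* and *Fhl1* had -0.74, -0.51 and -0.59 (adjusted p = 0.0539 for each), and *Arhgap29* went to -0.31. *H1f3* went to 0.91 (adjusted p = 0.118), with GC content and length taken, as for every gene, from its longest annotated transcript, which is 7425 bases here. Among the 10 lower genes, both Cu libraries were also below both NT libraries, except in *Ccn2*. The NT libraries are the same for both metals, so the 2 differences from NT are not independent. As counted, Zn was above Cu for *Lrrn1* (log2 difference 0.56), *Enpp2* (0.39), *Arhgap29* (0.30) and *Pappa* (0.28). Zn was below Cu for *Slc39a10* (-1.09), *Ccn2* (-0.49), *Actc1* (-0.43) and *Fhl1* (-0.39), while *Ccn3* and *Jam2* overlapped between the metals. Only *Slc39a10* and *Ccn2* of the 10 passed the threshold against Cu.

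Replication-dependent histone genes, whose mRNAs end in a stem-loop in place of a poly(A) tail and are made mainly in S phase, were nearly all on one side. Of 56 tested, 55 were higher with Zn, 43 of them at an unadjusted p under 0.05 and none lower at that level. In 48 both Zn libraries were above both NT libraries, which 23.8% of all genes showed, and none passed edgeR's adjusted threshold. DESeq2 called 21 of the 56 higher, beside 38 of all 15241 genes. Their median was 0.42 as counted and 0.30 after the correction, where 53 were higher, 32 of them at an unadjusted p under 0.05, and none passed. GC content and length were known for 55 of the 56. The summed level of the list was 3766 and 3702 CPM in NT, 5388 and 5073 CPM with Zn and 6128 and 5373 CPM with Cu, so that both metals stood above NT. By family, the median was 0.57 over 5 H1 genes, 0.48 over 14 H2A, 0.41 over 15 H2B, 0.34 over 11 H3 and 0.49 over 11 H4 genes. Ribosomal RNA was removed by digestion here, without selection for poly(A), so these mRNAs were counted. Several histone genes are near-identical copies, and the count of any 1 of them is uncertain, since reads that fit several copies were dropped.

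**Figure D3:**
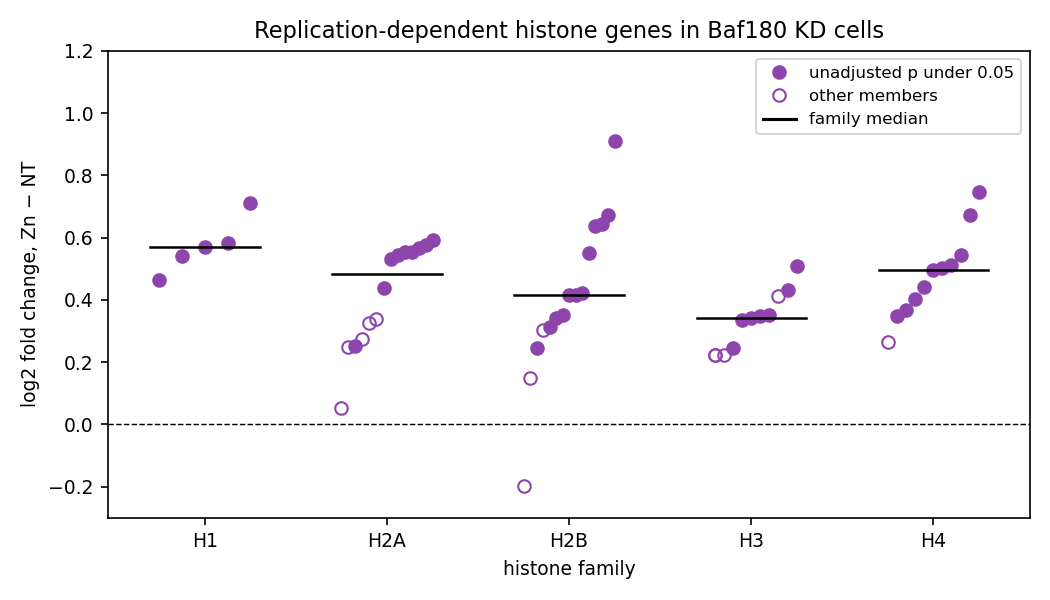
Log2 fold change (Zn against NT, *Baf180* KD cells) of each replication-dependent histone gene tested, by family. Filled points have an unadjusted p under 0.05, open points do not, and the line is the family median. Of 56 genes, 55 are above 0, and the exception, the H2B gene *H2bc21*, is at -0.20.

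Genes of DNA replication and S phase were higher in 41 of 51 cases, 17 at an unadjusted p under 0.05 against 2 lower, with a median of 0.14 and of 0.18 after the correction. *Mcm5*, a subunit of the replicative helicase, had 0.38 (SE 0.09) and *Chaf1a*, which loads histones onto new DNA, 0.38 (SE 0.10). G2 and mitosis genes had a median of 0.04 over 51 genes (0.07 corrected), with *Cdc20* at 0.41 and *Nusap1* at -0.39 (-0.20 corrected). Of the 51, 30 were higher, and 10 were higher and 1 lower at an unadjusted p under 0.05 (12 and 0 corrected). DNA repair genes lay on both sides, with 5 higher and 4 lower at that level (7 and 0 corrected). Their median was 0.04 over 48, with *Atm* at -0.42 (-0.17 corrected). In edgeR none of these genes passed, and in DESeq2 1 gene of the replication list and 1 of the mitosis list did. In bulk RNA a difference in the share of cells in a phase and a difference in RNA per cell cannot be told apart.

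Muscle genes were mostly on the lower side. Of 29 sarcomere and fusion genes tested 25 were lower with Zn, 7 at an unadjusted p under 0.05 against 1 higher, with a median of -0.33 and of -0.34 after correction. In 15 both Zn libraries were below both NT libraries, which 21.2% of all genes showed. *Actc1*, the cardiac actin that myoblasts make early in differentiation, was at 24.6 and 18.7 CPM in NT and at 11.7 and 12.8 CPM with Zn. Embryonic myosin *Myh3* had -0.61 (SE 0.12) and *Acta1*, skeletal actin, -0.44 (SE 0.10), while *Tnnt2* was higher at 0.24 (SE 0.10). The 6 markers of differentiated muscle summed to 168.6 and 151.4 CPM in NT, 121.7 and 116.9 CPM with Zn and 123.4 and 127.7 CPM with Cu. All 6 had negative values, with 0 called by edgeR, 2 by DESeq2 and 4 at an unadjusted p under 0.05. The myogenic regulators were lower in 12 of 15, with *Id2* at -0.41, *Mef2a* at -0.36 and *Myf5* at -0.33, and none passed in either tool. Corrected, *Mef2a* and *Myf5* were both at -0.14, and the median of the list went from -0.08 to -0.14. Fewer differentiating cells and less of these mRNAs per cell cannot be told apart in these samples.

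Matrix genes had a median of -0.05 (-0.11 corrected) over 35 tested, with 23 lower, 7 of them at an unadjusted p under 0.05 and 3 called by DESeq2. The lowest were *Dcn*, which encodes the proteoglycan decorin, at -1.06 (SE 0.20) and *Postn*, periostin, at -0.83 (SE 0.16). *Postn* went to -0.44 after correction for GC content and length. Cardiac development genes were lower in 14 of 20, with *Tgfb2* at -0.57 and *Bmp4* at -0.31. Neuronal development genes were lower in 26 of 34, 12 at an unadjusted p under 0.05, with the semaphorin gene *Sema3d* at -0.83 (-0.51 corrected) and the guidance receptor gene *Robo1* at -0.33. Their median moved from -0.18 to -0.08 with the correction. Of the cardiac and the neuronal list 1 gene each was called by DESeq2, and edgeR called 0 genes of these 3 lists.

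NRF2 targets and sterol synthesis genes were mostly on the higher side. NRF2 targets, the genes of the response to oxidants and electrophiles, were higher in 23 of 25, with a median of 0.22. Of the 25, 11 were higher at an unadjusted p under 0.05, as were 5.77% of all genes. In 17 both Zn libraries were above both NT libraries, which 23.8% of all genes showed. *Gsta4*, a glutathione transferase, was at 156.6 and 135.1 CPM in NT and at 211.8 and 182.4 CPM with Zn, a log2 fold change of 0.42 (SE 0.09, adjusted p = 0.264). *Pgd*, an enzyme of the pentose phosphate pathway, had 0.41 (SE 0.09) and the quinone reductase gene *Nqo1* 0.25 (SE 0.08). Sterol synthesis genes were higher in 22 of 25, 12 at an unadjusted p under 0.05, with *Mvd* at 0.49 and a median of 0.25. In edgeR none of either list passed, and in DESeq2 2 of the first and 1 of the second did.

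Genes of the ATF4 stress response were higher in 20 of 24, with *Trib3* at 0.40 and *Phgdh* at 0.38 but *Nupr1* at -0.39, and immediate early genes in 23 of 31, with *Egr1* at 0.34 (SE 0.07) and a median that went from 0.14 to 0.05 with the correction. Heat shock chaperones had a median of 0.04 (0.10 corrected), with *Fkbp4* at 0.34 and *Dnajb4* at -0.39 (-0.18 corrected). Targets of p53 had a median of -0.06, and the 5 that had an unadjusted p under 0.05 were all lower. Among them *Ccng1* had -0.56 (SE 0.10, -0.33 corrected) and *Mdm2*, the p53 ubiquitin ligase, -0.38 (SE 0.08). None of the genes in these 4 lists passed in edgeR, against 1, 3, 0 and 3 in DESeq2 in the same order.

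Cytosolic ribosomal protein genes were higher in 68 of 78, 23 at an unadjusted p under 0.05, with *Rpl8* at 0.41 (0.27 corrected) and *Rpl9* at 0.39, and their median was 0.21 as counted and 0.12 once corrected. The median over 77 mitochondrial ribosomal protein genes was 0.10, with *Mrpl28* at 0.41 (0.28 corrected) and *Mrpl1* at -0.34 (-0.14 corrected), and nuclear oxidative phosphorylation genes had 0.14 over 76 (0.09 corrected), with *Cyc1* at 0.34 (0.22 corrected). Translation factors had 0.10 over 46, with *Eif2b5* at 0.26. All 10 transcripts of the mitochondrial genome had values below 0 as counted, with a median of -0.56, *mt-Nd5* at -0.64 (SE 0.23) and *mt-Co1* at -0.51 (SE 0.21). Corrected, 9 of the 10 were below 0, with a median of -0.30, *mt-Nd5* at -0.33 and *mt-Co1* at -0.27. Histone and chromatin modifiers had a median of -0.02 over 73, with 0 higher and 10 lower at an unadjusted p under 0.05. Corrected, the median was 0.01, with 1 higher and 4 lower at that level. As counted, the demethylase gene *Kdm3a* was at -0.37 and the acetyltransferase gene *Kat2b* at -0.30. SWI/SNF subunits outside PBAF had a median of 0.06 over 22. Of these 7 lists 1 gene was called by DESeq2, a cytosolic ribosomal protein gene, and 0 by edgeR.

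**Figure D4:**
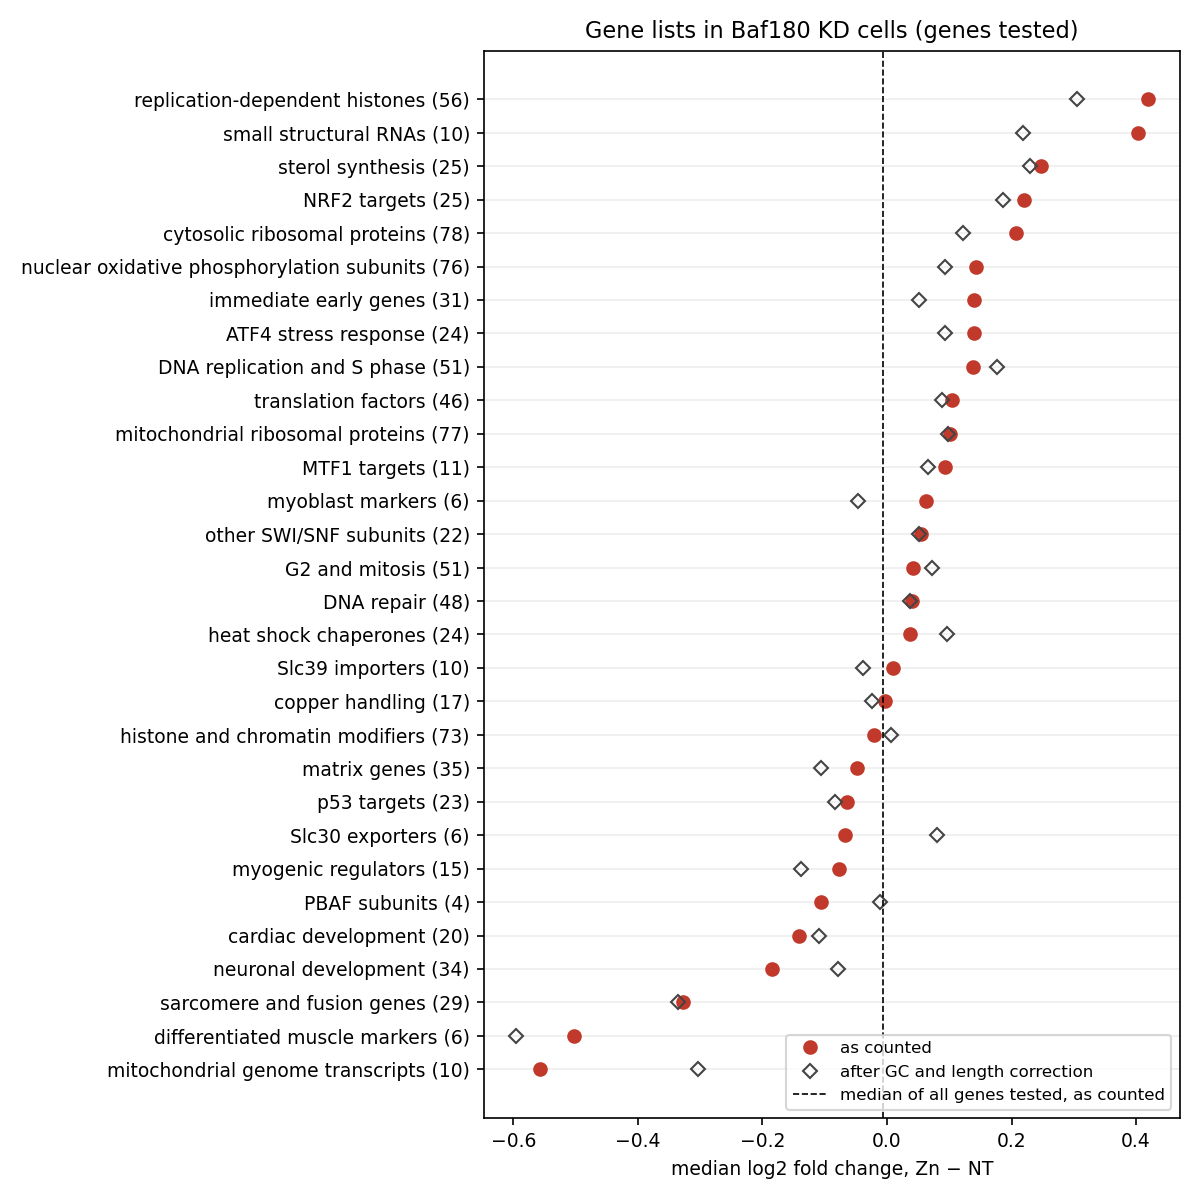
Median log2 fold change (Zn against NT, *Baf180* KD cells) of each gene list with at least 4 genes tested, metallothioneins aside, as counted (red) and after correction for GC content and length (open diamonds). The number of genes tested is in brackets and the dashed line is the median of all genes. Histones are highest in both forms, at 0.42 and 0.30, and sarcomere genes stay at -0.33 and -0.34, while mitochondrial genome transcripts move from -0.56 to -0.30.

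The response also followed GC content. For 10848 well expressed protein-coding genes, put in 5 equal groups by transcript GC content, the median log2 fold change went from -0.23 in the group lowest in GC to 0.12 in the group highest in GC. Spearman's rho between the 2 quantities was 0.57 across these genes, which share their libraries and are not independent, and 0.02 after the correction. In slopes of log2 CPM per 10 points of GC, the NT libraries were at -0.12 and -0.21 and the Zn libraries at 0.11 and -0.05. GC content therefore moved with treatment, and its part in the differences of the lists was not tested beyond their corrected values. Corrected medians not given above were 0.19 for NRF2 targets, 0.23 for sterol synthesis genes and 0.09 for the ATF4 list. They were -0.08 for p53 targets, -0.11 for cardiac development and 0.10 for mitochondrial ribosomal protein genes. Translation factors had 0.09, SWI/SNF subunits outside PBAF 0.05, the MTF1 list 0.07 and DNA repair genes 0.04. *Mt2*, *Slc30a1* and *Slc39a10* had corrected log2 fold changes of 1.55, 1.10 and -1.14 and all 3 passed.

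**Figure D5:**
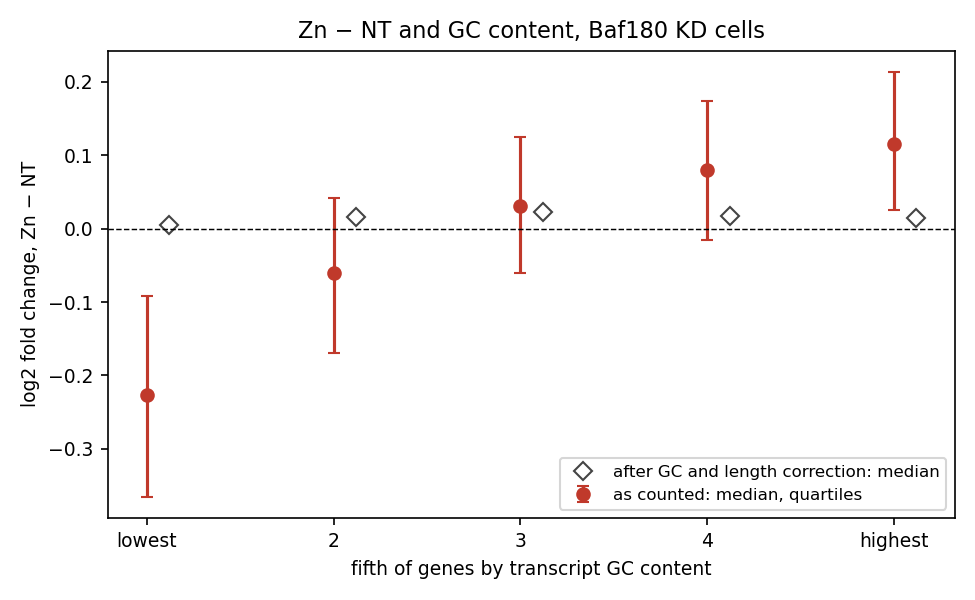
Log2 fold change (Zn against NT, *Baf180* KD cells) in 5 equal groups of protein-coding genes ordered by transcript GC content, as medians with quartiles (red) and as medians after correction for GC content and length (open diamonds). The medians go from -0.23 in the lowest group to 0.12 in the highest, and the corrected ones lie between 0.01 and 0.02.

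Zn was then set directly against Cu in the same KD cells. The difference is between the Zn and Cu libraries, but the NT libraries share the fit and its estimate of the spread, so the calls also depend on them. Genes called higher with Zn numbered 22 (0.144% of all) and genes called lower 29 (0.19%). The differences given here are as counted. They also followed GC content, with a Spearman's rho of -0.34 over 10848 genes. The slopes per 10 points of GC were 0.20 and 0.07 in the Cu libraries. Of the 51 calls, 47 were among the 113 genes called after the correction. The part of GC content in these differences was not tested further. The zinc genes stood out in the same direction as against NT. *Mt2* was at 123.2 and 128.9 CPM with Cu, well below both Zn libraries, a log2 difference of 1.45 (SE 0.10, adjusted p = 6.39e-04). *Mt1* was at 259.7 and 326.1 CPM with Cu (1.09, SE 0.17, adjusted p = 0.0489), *Slc30a1* at 19.1 and 17.1 CPM (0.91, SE 0.11, adjusted p = 0.0290) and *Slc39a10* at 32.4 and 35.6 CPM (-1.09, SE 0.12, adjusted p = 0.0138). None of the 17 copper handling genes tested differed between the metals at the adjusted threshold.

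Targets of NRF2 were lower with Zn than with Cu, with a median of -0.31 over 25 genes beside 0.01 over all, and *Srxn1*, *Nqo1*, *Abcc1* and *Me1* were called. *Nqo1* was at 61.1 and 56.4 CPM in NT, 74.0 and 67.7 CPM with Zn and 122.7 and 118.2 CPM with Cu, and Zn differed from Cu by -0.75 (SE 0.08, adjusted p = 0.0144). *Srxn1*, sulfiredoxin, differed by -0.79 (SE 0.09) and *Gsta4* by -0.46 (SE 0.09), which did not pass (adjusted p = 0.0704). The signalling genes *Wnt4* and *Fst* (follistatin) were also lower with Zn, by -1.18 and -0.97, and *Wnt4* was at 4.79 and 5.56 CPM with Zn, 13.1 and 10.99 CPM with Cu and 5.60 and 5.80 CPM in NT. *Heyl*, a transcriptional repressor in Notch signalling, was higher by 1.34, at 14.7 and 11.5 CPM with Zn and 5.68 and 4.75 CPM with Cu. The Y RNA genes *Rny3* and *Rny1* were higher by 1.75 and 1.72, and *H3c3* and *H3c11* lower by -0.91 and -0.65, among 56 histone genes with a median of -0.20.

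This comparison rested more on single libraries. The 51 calls went to 3 without Cu replicate 1, 12 without Cu replicate 2, 4 without Zn replicate 1, 25 without NT replicate 1 and 32 without NT replicate 2. Of the 18 called genes followed through these fits, *Mt2* and *Slc39a10* passed in all 6, and the others lost the call in at least 1, with adjusted p between 0.0509 and 0.207 where they did. *Mt1* and *Slc30a1* lost the call without Cu replicate 1 (adjusted p = 0.194 and 0.102), Cu replicate 2 (0.0686 for both) and Zn replicate 1 (0.116 and 0.103), and *Nqo1* without Cu replicate 1 (0.105).

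Finally the Zn response of *Baf180* KD cells was set against that of scr cells, as the difference between the 2 responses in a fit of all 24 libraries. Over 16524 genes, 2660 had a more positive response in *Baf180* KD cells (16.1%) and 2082 a more negative one (12.6%), so a call here is common. That fit holds 1 library of another line, *Baf250a* KD Zn replicate 2, with only 495778 counts, while each of the others had at least 12719173. *Mt2* was at 18.2 and 20.8 CPM in untreated scr cells and at 197.5 and 190.4 CPM with Zn. In scr cells it thus started at a lower level than in *Baf180* KD cells and ended at a lower one, and its log2 fold change was 3.31 (SE 0.13) against 1.73 (SE 0.12) in the same fit, a difference of -1.58 (SE 0.17, adjusted p = 1.81e-04). *Mt1* showed the same order, with 55.2 and 65.1 CPM in scr NT and 311.9 and 284.1 CPM in scr Zn, and a difference of -1.01 (SE 0.24, adjusted p = 0.00493). After correction for GC content and length these differences were -2.23 and -1.42, and they passed in every alternative fit run. Untreated KD libraries had *Mt1* at 217.9 CPM or more, above every untreated scr library.

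*Slc30a1* and *Slc39a10* responded by amounts whose difference did not pass the test. *Slc30a1* was at 10.8 and 11.4 CPM in scr NT and at 29.9 and 27.0 CPM in scr Zn (difference -0.31, SE 0.20, adjusted p = 0.257). *Slc39a10* was at 38.7 and 33.5 CPM and at 18.6 and 18.3 CPM (difference -0.29, SE 0.16, adjusted p = 0.190). *Mtf1* had a difference of 0.25 (SE 0.14, adjusted p = 0.181). *Atp7a* had a difference of -0.49 (SE 0.16, adjusted p = 0.0256), which was -0.16 (adjusted p = 0.477) after correction for GC content and length. *Atp7a* also lost its call without *Baf180* KD NT replicate 2 (0.125), *Baf180* KD Zn replicate 1 (0.133), scr NT replicate 2 (0.194), scr Zn replicate 1 (0.0565) or scr Zn replicate 2 (0.0756). The 4742 calls in all went to 1403 with this correction, to 1883 without scr NT replicate 2, to 2496 without *Baf180* KD Zn replicate 1, to 2833 without *Baf180* KD NT replicate 2 and to 2666 without scr Zn replicate 2.

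Histone genes were among the calls on the positive side. *H1f1* was at 263.0 and 316.8 CPM in scr NT and at 248.7 and 232.4 CPM in scr Zn, a difference between the lines of 1.00 (SE 0.18), and *H1f3* differed by 0.99 (SE 0.17). Corrected, they differed by 0.48 and 2.09 (adjusted p = 0.0164 and 0.00337). The correction took *H1f3* as a transcript of 7425 bases with 39.8% GC, beside 741 bases and 54.5% for *H1f1*. How far this choice of transcript set the value of 2.09 was not tested. Of 57 histone genes 27 had a more positive response and none a more negative one. The largest positive differences belonged to the Y RNA genes *Rny3* and *Rny1*, *CT010467.1*, which is annotated as ribosomal RNA, *Lars2* and *Ftl1-ps1*, which carries a pseudogene name and is annotated as protein coding, and the largest negative ones to *Zfp958*, *Depdc1a*, *Ogn*, *Samd9l* and *Sh3bgrl*. In *CT010467.1* the untreated scr libraries stood at 48156 and 17255 CPM and the scr Zn libraries at 1146 and 1092 CPM, while the *Baf180* KD libraries ran from 1392 to 7852 CPM. This transcript thus moved with the scr groups, and its part in the differences of other genes was not tested. *Lars2* moved with the same groups, at 1384 and 652 CPM in scr NT and at 24.8 and 30.5 CPM in scr Zn. In the *Baf180* KD libraries *Lars2* ran from 31.8 to 205 CPM. Replicates of *CT010467.1* also differed widely within groups, with 7852 and 1739 CPM in *Baf180* KD NT, where *Lars2* was at 205 and 54.6 CPM. *Rny1* and *Ftl1-ps1* lost the call without scr NT replicate 2 (adjusted p = 0.0706 and 0.0861) and *Lars2* without *Baf180* KD Zn replicate 1 (0.0519).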

How the data were processed

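RNA-seq counts of 24 libraries were used, 12 groups with 2 replicates each, grouped by title. The authors used STAR on mm10, dropped reads with more than 1 position, and counted the rest by gene and strand with featureCounts. The counts they deposited are whole numbers, not normalized, for 55291 symbols. Deposited tables of the authors' comparisons (14 tables of fold changes and p-values from DESeq2) were not used.

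Tests used R 4.3.3 and edgeR 4.0.16 (glmQLFit, glmQLFTest) after TMM and filterByExpr, with a Benjamini-Hochberg adjusted p under 0.05. Zn against NT and against Cu were fitted on the 6 *Baf180* KD libraries, and the difference from scr on all 24. CPM use TMM over all 24 libraries. The correction for GC content and length used the longest GENCODE M21 transcript of each symbol, matched by name or through RefSeq synonyms at overlapping positions (15117 of 15241 tested symbols), and a spline with 5 degrees of freedom per library as an offset. Promoter sequences are from RefSeq.

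The comparison and the gene lists were chosen with earlier results of these data known. Named genes were those called, the 10 with the smallest p in each direction (mean normalized count of at least 50, no overlap between groups), the 5 largest called differences in each direction against Cu and scr under a like filter, members of the metal and PBAF lists, the 2 members with the smallest p per direction of each other list, and metal genes named in the study. Symbols of predicted genes, clones, most small RNAs and the mitochondrial genome were left out of the selections by p or size. *Abcc1* and *H3c11* against Cu, and *H1f1*, *H1f3* and *Slc30a4* against scr, were added after their values were seen. Scripts were tested on simulated counts. Depths set the counting precision, and DESeq2 1.42.0 and further alternatives are given at the end. Results for some genes that the rule named are not reported here.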

Additional observations from a re-analysis of the deposited data

Results flagged for a closer look

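For 17 named genes the Zn response of *Baf180* KD cells differed from that of scr cells in the test of the difference itself (edgeR's quasi-likelihood test, 24 libraries, adjusted p under 0.05). The differences below are the log2 response of *Baf180* KD cells minus that of scr cells, with n = 2 libraries in each of the 4 groups, and they share the scr libraries.

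Among metal and chromatin genes, *Mt2* differed by -1.58 and *Mt1* by -1.01, in both cases from a higher untreated level in the KD cells. *Pbrm1* differed by -1.20 (-0.40 after correction for GC content and length), *Slc30a4* by -1.17 (-0.38, no longer past the threshold, adjusted p = 0.0778) and *Atp7a* by -0.49. The linker histone genes *H1f1* and *H1f3* differed by 1.00 and 0.99 (0.48 and 2.09 after the correction). The corrected value of *H1f3* rests on a transcript of 7425 bases, beside 741 for *H1f1*. *H1f3* lost the call when counts were thinned to the smallest library total (adjusted p = 0.0657).

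The 5 largest positive differences were 4.39 for *CT010467.1*, 4.37 for *Lars2*, 3.90 for *Rny3*, 3.42 for *Rny1* and 2.35 for *Ftl1-ps1*. In scr NT the replicates of *Rny3* were at 81.1 and 371.9 CPM, and both scr Zn libraries were lower, at 26.5 and 28.9 CPM. The 5 largest negative differences were -3.61 for *Zfp958*, -3.39 for *Depdc1a*, -3.25 for *Ogn*, -3.18 for *Samd9l* and -3.05 for *Sh3bgrl*, and each of these 5 genes was higher in both scr Zn libraries than in both scr NT libraries. Corrected for GC content and length, these differences were -2.51, -1.92, -1.98, -2.08 and -1.79, and those of *Lars2*, *Rny3*, *Rny1* and *Ftl1-ps1* were 4.11, 3.03, 2.79 and 1.80. All 10 genes still passed the threshold.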

How the results depend on the processing

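The 3 genes called with Zn against NT were also called in all 11 alternative settings that used every library of the comparison. The count of calls stayed at 3 after correction for GC content and length, and was 93 with DESeq2, 589 with a filter of at least 1 count, 7 with a minimum of 1 on the mean normalized count, 6 with counts thinned to the smallest total and 14 in a fit of all 24 libraries. Leaving out 1 library gave 2 to 7 calls. Against Cu, the 51 calls became 264 with DESeq2, 565 and 108 with these filters, 113 after the correction, 108 with all 24 libraries, 29 with a minimum fold change of 1.5, 20 in a fit of only the libraries compared, and 3 to 43 with 1 library left out. For the difference from scr, the 4742 calls became 1403 after the correction and 541 after thinning, which takes every library to the 495778 counts of *Baf250a* KD Zn replicate 2, and 1883 to 5185 with 1 library left out. Without the *Baf250a* KD libraries, a setting chosen after seeing the data, there were 4509. Apart from the loss of counts by thinning, the cause of these changes was not tested.

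With the replicate number as a replicate block, the calls were 657 (166 higher, 491 lower) for Zn against NT, 625 for Zn against Cu and 4571 for the difference from scr. In Zn against NT this fit called 29 of 56 histone genes higher and *Pbrm1* lower (adjusted p = 0.0415). With the block and the correction together the calls were 34, 279 and 1369. Deviations of same-numbered libraries correlated by 0.384 (NT and Zn), 0.182 (NT and Cu) and 0.223 (Cu and Zn), and with 2 replicates these libraries are treated as sharing only a number.

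Of all 168 genes the naming rule gave, 26 had values on both sides of 0 in Zn against NT when 1 library was left out, none of them called. Of those described with values, *Mtf1* ranged from -0.030 to 0.17, *Brd7* from -0.079 to 0.028, *Slc31a1* from -0.084 to 0.089 and *Slc30a5* from -0.019 to 0.076. *CT010467.1* ranged from -1.58 to 0.94. *Phf10* changed direction to 0.115 after the correction and 0.112 with the block as well, and *Slc31a1* to 0.137, 0.139, 0.00498 (thinned) and 0.0139 (all 24 libraries). In the difference from scr, *Slc39a10* changed direction to 0.081 after the correction and to 0.077 with the block as well. With 2 libraries a group and at least 13979295 counts in each *Baf180* KD library, an adjusted p that misses the threshold does not show that a gene kept its level.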
